A study of Mus musculus with 4 samples.

Results

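The NuRD complex (nucleosome remodelling and deacetylase) was examined at the RNA level through 10 subunit genes: the chromatin remodelling ATPase Chd4, the methyl-CpG-binding domain proteins Mbd3 and Mbd2, the histone deacetylases Hdac1 and Hdac2, the metastasis-associated scaffold proteins Mta1, Mta2 and Mta3, and the GATA zinc finger proteins Gatad2a and Gatad2b. Each gene was found by matching its symbol to the RefSeq identifiers of the deposited table, and where a symbol had several rows the row with the highest mean was to be used; each had 1 row, so 10 of 23697 loci were taken. The cells were WW6, a mouse embryonic stem cell line of mixed C57/B6J, 129/Sv and SJL background; 1 group was transiently transfected with small interfering RNA (siRNA) against Kdm5b, a histone H3 lysine 4 demethylase (2 libraries, knockdown A and B). Control cells of the same line received siRNA against GFP (2 libraries, control A and B); the sample labels call the 2 treatments a Kdm5b targeting construct and a mock control construct. Both groups were grown without feeder cells on gelatin with serum and leukemia inhibitory factor and were transfected 24 hours after seeding. The time of harvest is not given in the sources used here, and whether A and B came from separate cultures is not said in the labels. The p-values therefore reflect how much these libraries vary, and that variation may be technical.

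NuRD joins nucleosome remodelling and histone deacetylation in 1 assembly, which is recruited to promoters and enhancers. Mbd3 and Mbd2 occupy the same place in alternative forms of the complex and are not found in it together. The paired deacetylases, the Mta proteins and the Gatad2 proteins are also paralogs that can stand in for each other. The exclusion is stated here for Mbd3 and Mbd2 alone. In mouse embryonic stem cells the Mbd3 form is known for damping the expression of pluripotency genes and for allowing lineage commitment.

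The promoters of 7 of the 10 genes were used from a RefSeq table of the GRCm38.p6 build, in 10 windows of the 250 bases before a start site. Promoters of 3 genes are shown to let their CCAAT boxes and GC boxes be compared. They are the deacetylase with the higher listed FPKM (Hdac2), the ATPase (Chd4, the first of its starts in the table) and the Mbd3 gene. Each is given 5′ to 3′ on the strand of the gene. Every CCAAT (or ATTGG) and GGGCGG (or CCGCCC) is in capitals, and the motifs can share letters where they adjoin.
Hdac2, chr10:36974294-36974543, plus strand: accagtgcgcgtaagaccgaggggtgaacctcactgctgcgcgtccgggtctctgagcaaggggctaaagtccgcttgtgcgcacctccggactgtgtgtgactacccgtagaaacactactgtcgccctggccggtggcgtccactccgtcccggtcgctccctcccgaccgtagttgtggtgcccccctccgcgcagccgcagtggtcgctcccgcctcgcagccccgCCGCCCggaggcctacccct
Chd4, chr6:125095731-125095980, plus strand: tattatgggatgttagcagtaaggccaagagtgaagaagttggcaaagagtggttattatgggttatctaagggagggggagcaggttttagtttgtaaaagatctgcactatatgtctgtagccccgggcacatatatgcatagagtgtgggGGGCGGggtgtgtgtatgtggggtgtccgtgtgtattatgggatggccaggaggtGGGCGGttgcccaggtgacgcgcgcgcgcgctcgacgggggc
Mbd3, chr10:80399532-80399781, minus strand: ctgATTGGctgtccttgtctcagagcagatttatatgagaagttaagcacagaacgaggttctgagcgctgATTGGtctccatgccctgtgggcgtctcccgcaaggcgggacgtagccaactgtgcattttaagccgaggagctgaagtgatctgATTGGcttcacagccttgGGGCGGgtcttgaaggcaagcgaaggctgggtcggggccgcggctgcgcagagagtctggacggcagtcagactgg

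The Mbd3 window held 3 CCAAT boxes and the Hdac2 and Chd4 windows shown held 0. The window of the other Chd4 start, not shown, held 1. A GC box stood in 10 of the 10 subunit windows used and a CCAAT box in 5 of them. Hdac1, Mbd2 and Mta3 had no window among those used, so these counts do not cover them. The selection left out windows on chromosome 18, where Mbd2 lies. Of the 32851 promoter windows in the table, 32.7% and 33.8% hold a GC box and a CCAAT box. The 10 subunit windows came from 7 genes, and those of Chd4 overlap, so they are not independent. The subunit windows had 12 to 39 CpG dinucleotides, against a median of 6 over all windows. These are matches of letters and were not tested.

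Kdm5b, the target of the siRNA, had 22.7 and 31.1 FPKM (fragments scaled to transcript length and to the number of mapped fragments in the library) in knockdown A and B, against 99.7 and 145 FPKM in control A and B, and averaged 22.0% of control in the knockdown. Its log2 fold change was -2.14 (standard error 0.30, 95% interval -2.86 to -1.42), and it was not among the loci called (limma adjusted p = 0.562). Of the 10 embryonic stem cell marker genes, 10 were detected, with summed levels of 4781 and 4012 FPKM in knockdown A and B, against 3622 and 4414 FPKM in control A and B. Summed levels of 8 fibroblast markers were 0.258 and 1.85 FPKM in knockdown cells, against 9.39 and 2.92 FPKM in control cells, with Lum at 0 in all 4 libraries. Acta2 gave 6.48 FPKM of the control A sum. For 8 endoderm markers the sums were 3.20 and 3.06 FPKM in knockdown cells, against 11.1 and 16.9 FPKM in control cells. Cubn was the largest part of the control sums, at 4.23 and 7.39 FPKM in control A and B. For 5 mesoderm markers the sums were 0.612 and 2.32 FPKM in knockdown cells, against 1.58 and 3.37 FPKM in control cells, with Mesp1 at 0 throughout. For 5 neural markers they were 55.4 and 50.1 FPKM in knockdown cells, against 63.2 and 65.3 FPKM in control cells, mostly Tubb3. Their part in the subunit levels was not tested, and in bulk RNA fewer cells of a type and less RNA per cell cannot be told apart. Knockdown A stood apart from the other 3 libraries: it listed 11953 loci at 0, against 8609 in knockdown B and 8131 and 8281 in the controls, and across tested loci its Pearson's r with the others was 0.867 to 0.891, against 0.940 to 0.957 among the other 3. Its estimated depth was 76.1% of that of control B.

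All 10 subunits averaged 1 FPKM or more and entered the test, which limma fitted to the 11784 loci at that level after a log2(FPKM + 1) transform. Fold changes of weakly expressed genes come out too small on that scale. With 4 libraries, 0 of the 10 subunits passed at a limma adjusted p under 0.05, and 0 had an unadjusted p under 0.05. Over all tested loci 0.0339% were called lower (4 loci, Mir3070b, Mir3960, Mir6236 and Lars2, named after their values were seen) and 0% higher, and 2.46% had an unadjusted p under 0.05. The log2 fold change of knockdown over control was below 0 for 7 subunits and above 0 for 3, with a median of -0.31, where 6229 of 11784 tested loci were below 0 and the median was -0.03. That median rested on knockdown A: it was 0.062 without knockdown replicate A and -0.62 without knockdown replicate B.

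**Figure D1:**
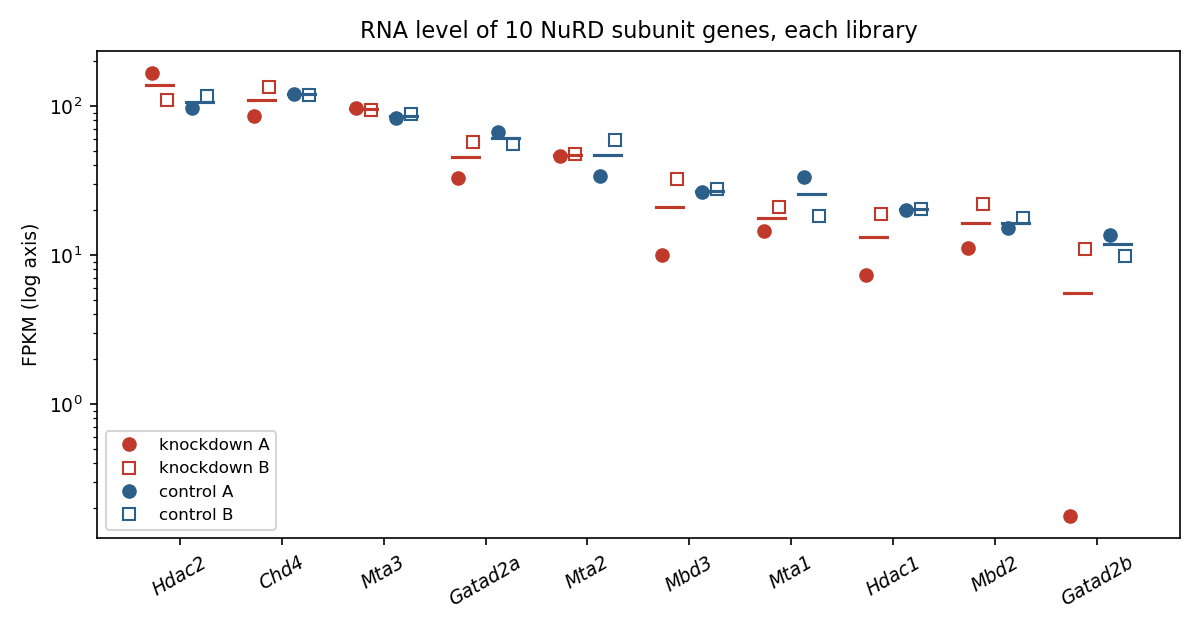
FPKM of each subunit gene in each library on a log axis, ordered by the mean of the 4 libraries; red symbols are knockdown, blue are control, filled circles replicate A, open squares replicate B, and short lines the group means (n = 2 each). Knockdown A is the lowest library for 7 of the 10 genes and lies farthest from the others for Gatad2b, at 0.177 FPKM.

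FPKM is scaled to transcript length, so the levels of the genes can be set side by side. The place of Hdac1 is uncertain, because fragments of its transcript may be shared with similar transcripts of other genes. The place of Gatad2b is uncertain too, because the interval counted is shorter than the RefSeq gene. Its mean also includes 0.177 FPKM in knockdown A, an estimated 1.02 fragments. By the mean of the 4 libraries the order was Hdac2 at 122 FPKM, Chd4 at 114 FPKM, Mta3 at 90.5 FPKM, Gatad2a at 53.2 FPKM, Mta2 at 46.7 FPKM, Mbd3 at 24.1 FPKM, Mta1 at 21.8 FPKM, Hdac1 at 16.7 FPKM, Mbd2 at 16.4 FPKM and Gatad2b at 8.66 FPKM. Hdac2 exceeded Chd4 in 1 of 4 libraries, knockdown A, and Chd4 was the higher in the other 3. The highest mean over the lowest was 14.1-fold over all libraries (Hdac2 over Gatad2b) and 10.1-fold in the controls alone (Chd4 over Gatad2b). The ranges over the libraries overlapped for 7 of the 9 pairs of neighbours in this order, so most neighbours were not set apart by more than their spread; the 2 steps without overlap were Mta3 above Gatad2a and Mta2 above Mbd3, each in 4 of 4 libraries. Among all tested loci, Hdac2 and Chd4 stood at the 94.0th and 93.5th percentile of level and Gatad2b at the 40.0th.

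Chd4 (NM_145979; mm9 chromosome 6, from 125046180 to 125080519) encodes the ATPase that slides nucleosomes. It had 85.9 FPKM in knockdown A and 133 FPKM in knockdown B, against 120 and 119 FPKM in control A and B. Knockdown A lay below and knockdown B above both controls, so the groups overlapped. Its log2 fold change was -0.16 (standard error 0.27, 95% interval -0.82 to 0.51, limma adjusted p = 0.938), and it turned to 0.16 without knockdown replicate A. The interval of the microRNA locus Mir7045 lies on that of Chd4, and fragments of the pair may be shared.

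Mbd3 (NM_013595; mm9 chromosome 10, from 79855285 to 79862224), the subunit that defines the Mbd3 form of NuRD, had 10.0 FPKM in knockdown A and 32.2 FPKM in knockdown B, against 26.6 and 27.5 FPKM in control A and B. The controls differed little, while the knockdown libraries lay on either side of them. The fitted difference was a log2 fold change of -0.55 (standard error 0.52, 95% interval -1.83 to 0.72, limma adjusted p = 0.918), and 0.24 without knockdown replicate A. Mbd2 (NM_010773; mm9 chromosome 18, from 70727945 to 70785785), which binds methylated DNA and defines the other form, had 11.2 FPKM in knockdown A and 21.8 FPKM in knockdown B, against 15.1 and 17.7 FPKM in control A and B. Here too the knockdown libraries were the lowest and the highest of the 4. Between groups the log2 fold change was -0.06 (standard error 0.38, 95% interval -0.98 to 0.87, limma adjusted p = 0.986); it was 0.40 without knockdown replicate A and 0.05 without control replicate B.

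Hdac1 and Hdac2 are the catalytic deacetylases of NuRD and are shared with the SIN3, CoREST and MiDAC complexes. Hdac1 (NM_008228; mm9 chromosome 4, from 129193347 to 129219890) had 7.34 FPKM in knockdown A and 18.9 FPKM in knockdown B, against 20.1 and 20.4 FPKM in control A and B. Both knockdown libraries lay below both controls, knockdown B by a small margin, with means of 13.1 ± 8.14 FPKM in knockdown and 20.2 ± 0.244 FPKM in control (SD, n = 2 each). The log2 fold change was -0.72 (standard error 0.45, 95% interval -1.82 to 0.38, limma adjusted p = 0.918), and -0.10 without knockdown replicate A. The level of Hdac1 is also uncertain because its transcript matches the transcripts of 3 other genes over long stretches (Gm10093 at 99.4% identity over 1444 bp, AC125456.1 at 96.3% over 1450 bp and Gm4864 at 94.6% over 1469 bp), and how fragments that fit several copies were counted is not given in the sources used here. These 3 genes were not among the symbols given to the deposited loci. Matches of at least 500 bp and 90% identity to another gene were found for 0 of the other 9 subunits. Hdac2 (NM_008229; mm9 chromosome 10, from 36694349 to 36721694) had 166 FPKM in knockdown A and 109 FPKM in knockdown B, against 96.4 and 116 FPKM in control A and B. Knockdown A was the highest of the 4 libraries and knockdown B lay between the controls. Its log2 fold change was 0.35 (standard error 0.28, 95% interval -0.33 to 1.02, limma adjusted p = 0.918), and 0.05 without knockdown replicate A.

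The Mta proteins are the scaffolds that dimerize and recruit the deacetylases. Mta1 (NM_054081; mm9 chromosome 12, from 114336488 to 114375417) had 14.6 FPKM in knockdown A and 21.0 FPKM in knockdown B, against 33.3 and 18.2 FPKM in control A and B. Control A stood above the other 3, and the groups overlapped. The fitted difference was a log2 fold change of -0.47 (standard error 0.38, 95% interval -1.40 to 0.46, limma adjusted p = 0.918), and -0.05 without control replicate A. Mta2 (NM_011842; mm9 chromosome 19, from 9016409 to 9026790) had 46.3 FPKM in knockdown A and 47.4 FPKM in knockdown B, against 33.9 and 59.2 FPKM in control A and B. The knockdown libraries were nearly equal and lay between the controls. Between groups the log2 fold change was 0.06 (standard error 0.32, 95% interval -0.72 to 0.84, limma adjusted p = 0.981), and -0.33 without control replicate A. Mta3 (mm9 chromosome 17, from 84105502 to 84214245, with 4 RefSeq transcripts at the locus) had 96.5 FPKM in knockdown A and 93.2 FPKM in knockdown B, against 83.6 and 88.7 FPKM in control A and B. Both knockdown libraries lay above both controls, with means of 94.8 ± 2.38 FPKM in knockdown and 86.1 ± 3.61 FPKM in control (SD, n = 2 each). The log2 fold change was 0.14 (standard error 0.21, 95% interval -0.37 to 0.65, limma adjusted p = 0.932).

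Gatad2a and Gatad2b, also known as p66-alpha and p66-beta, link the MBD protein to Chd4. Gatad2a (mm9 chromosome 8, from 72430967 to 72520283, with 3 RefSeq transcripts at the locus) had 32.8 FPKM in knockdown A and 57.6 FPKM in knockdown B, against 67.0 and 55.4 FPKM in control A and B. Knockdown A was the lowest library and knockdown B lay between the controls. Its log2 fold change was -0.48 (standard error 0.33, 95% interval -1.28 to 0.32, limma adjusted p = 0.918), and -0.08 without knockdown replicate A. Gatad2b (NM_139304; mm9 chromosome 3, from 90145575 to 90162042) had 0.177 FPKM in knockdown A and 10.9 FPKM in knockdown B, against 13.7 and 9.91 FPKM in control A and B. Knockdown B lay between the controls, and the value of knockdown A stands for an estimated 1.02 fragments, against 80.6, 106 and 75.1 fragments in knockdown B and control A and B. The fitted difference was a log2 fold change of -1.76 (standard error 1.03, 95% interval -4.26 to 0.75, limma adjusted p = 0.918), and -0.09 without knockdown replicate A. With a smaller pseudocount it was larger in size, at -2.75 with 0.1 and -3.03 with 0.01, and was not called. Without knockdown replicate B, when knockdown A alone stands for the group and is assumed to vary like the controls, Gatad2b passed (limma adjusted p = 0.0376, the lowest over its alternatives, whose highest was 1) as 1 of 119 loci called lower, with 15 called higher. The deposited interval of Gatad2b spans 16468 bp, against 70225 bp for the RefSeq gene in GRCm38.p6, so starts further upstream may lie outside the model that was counted.

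**Figure D2:**
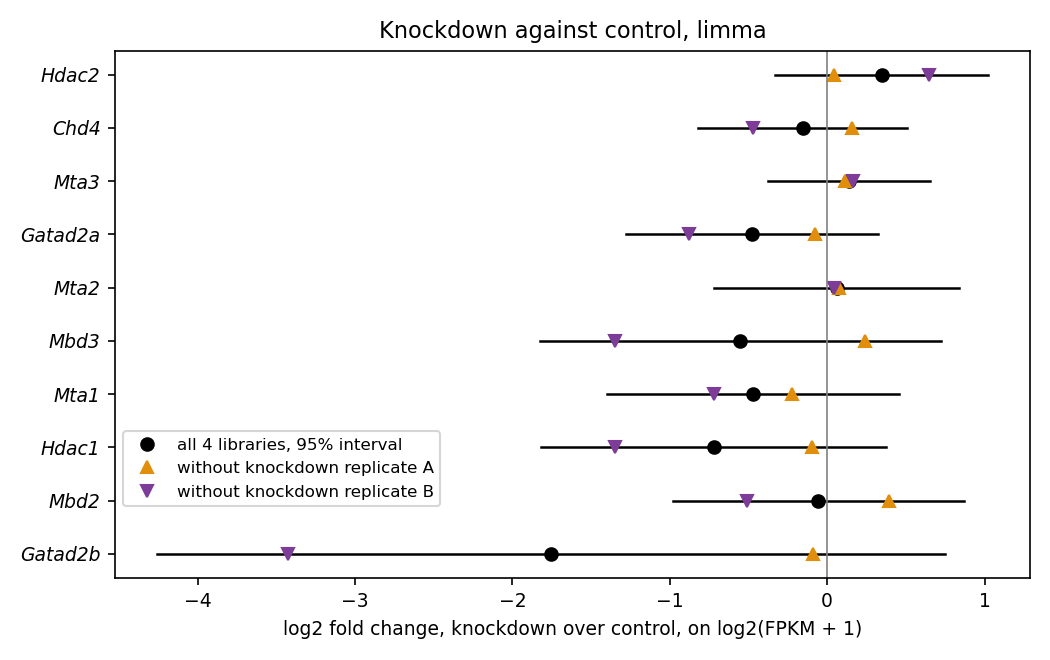
log2 fold change of each subunit (x axis, knockdown over control on log2(FPKM + 1)) with all 4 libraries (black circles, with 95% intervals from limma), without knockdown replicate A (orange) and without knockdown replicate B (purple). All 10 black intervals cross 0; Chd4, Mbd3 and Mbd2 change sign when knockdown A is left out, and Gatad2b is at -0.09 without knockdown A and -3.43 without knockdown B.

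Groups did not overlap for 2 of the 10 subunits, Mta3 on the higher and Hdac1 on the lower side, a share below the 31.9% of all tested loci whose groups do not overlap (15% higher, 16.9% lower). Knockdown A was the lowest library for 7 of 10 subunits, where it was the lowest at 39.2% of tested loci (knockdown B at 16.4%, control A at 26.3% and control B at 18.1%). The spread between the knockdown replicates exceeded that between the control replicates for 7 subunits, as it did at 60.4% of tested loci. The median absolute difference between replicates was 0.71 between the knockdown libraries and 0.24 between the controls over the 10 subunits (log2 of FPKM + 1), against 0.44 and 0.32 over all tested loci.

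Each library was then set against the mean of the other 3 on the log2(FPKM + 1) scale. In knockdown A the median deviation of the 10 subunits was -0.64, against -0.04 over all tested loci. In knockdown B it was 0.26, in control A 0.22 and in control B 0.16, against 0.03, 0.05 and 0.03 over all tested loci. The deviation of knockdown A was -3.40 for Gatad2b, -1.43 for Mbd3 and -1.32 for Hdac1, which placed these genes at the 0.704th, 9.35th and 11.1th percentile of all tested loci in that library. Hdac2 was at 0.63, the 85.6th percentile, while Mta3 at 0.13 and Mta2 at 0.02 lay near 0. Subunits of knockdown A were thus spread over most of the range that loci of this library showed, with 15.8% of all tested loci at least 1 log2 unit below the other libraries and 6.58% at least 1 above. Across tested loci the deviation of knockdown A went with level, from a median of -0.42 in the weakest of 5 equal bins by mean FPKM to 0.09 in the strongest; 5 subunits (Hdac2, Chd4, Mta3, Gatad2a and Mta2) were in the strongest bin, 2 in the next and 3 in the middle one. The part of depth and level in the subunits' deviations was not tested.

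**Figure D3:**
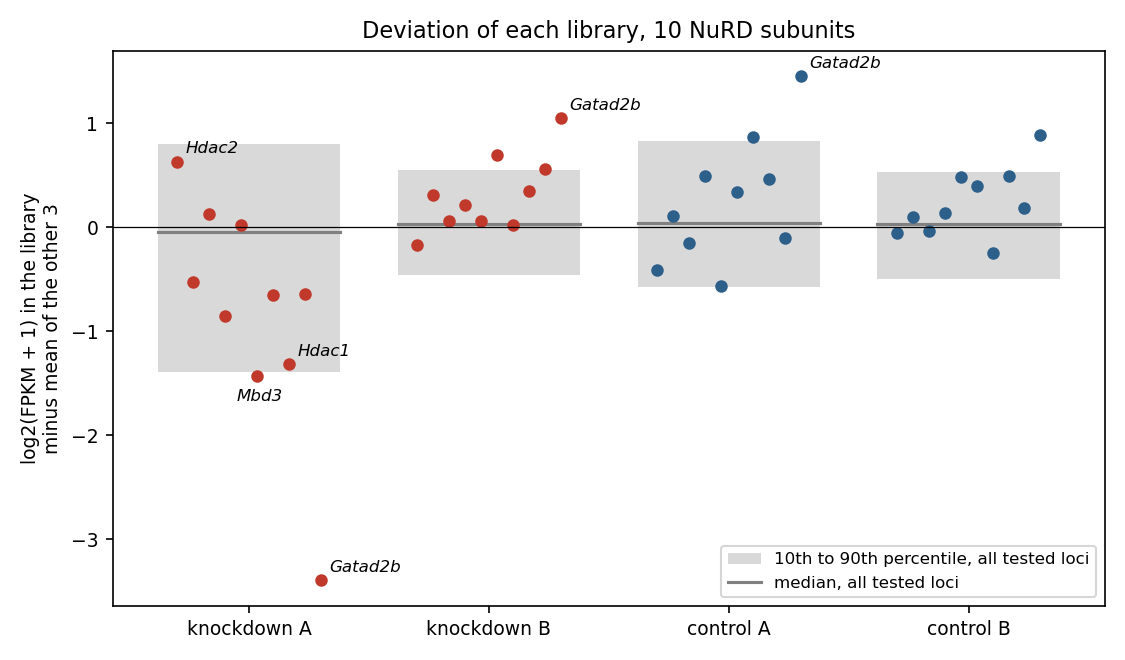
Deviation of each library from the mean of the other 3 (y axis, log2(FPKM + 1)) for the 10 subunits, drawn from left to right in order of level within each library; grey boxes run between the 10th and 90th percentile and grey lines mark the median of all 11784 tested loci. In knockdown A, Gatad2b at -3.40 and Mbd3 at -1.43 lie below the box, and 7 of the 10 subunits lie below 0. Points lie outside the boxes in the other libraries too, among them Gatad2b above the box in knockdown B and both controls.

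Among themselves, Chd4 and Mbd2 had the most alike profiles over the 4 libraries (Euclidean distance 0.27 between log2(FPKM + 1) values centred on each gene's mean), followed by Mbd3 and Hdac1 (0.29). Hdac2 was nearest to Mta3 (0.46). Gatad2b was apart from all, at 1.76 from its nearest subunit, Mbd3. The low value in knockdown A is common to the first 2 pairs.

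Each set of paralogs was described by each gene's share of their summed FPKM. These RNA shares do not give the makeup of a single complex. Mbd3 made up 47.3% and 59.6% of the Mbd3 and Mbd2 sum in knockdown A and B, against 63.8% and 60.9% in control A and B. Hdac1 made up 4.22% and 14.7% of the Hdac1 and Hdac2 sum in knockdown A and B, against 17.2% and 14.9% in control A and B. In every library the listed FPKM of Hdac2 exceeded that of Hdac1, whose value is uncertain because similar transcripts may share its fragments. Mbd2 exceeded Mbd3 in knockdown A, while Mbd3 was the higher in the other 3. Mta3 made up 61.3% and 57.7% of the sum of the 3 Mta genes in knockdown A and B, against 55.4% and 53.4% in control A and B. Mta2 made up 29.4% and 29.3% in knockdown A and B, against 22.5% and 35.7% in control A and B, and Mta1 the remaining 9.25% and 13.0% in knockdown A and B, against 22.1% and 10.9% in control A and B. Mta3 was the most abundant Mta gene in all 4 libraries. Gatad2a made up 99.5% and 84.1% of the Gatad2a and Gatad2b sum in knockdown A and B, against 83.1% and 84.8% in control A and B. The Gatad2b part of that sum is uncertain, because the interval counted is shorter than the RefSeq gene.

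Knockdown and control shares of Mbd3, Hdac1 and Mta3 did not overlap and those of Mta1, Mta2 and Gatad2a did. The difference was -8.90 percentage points for Mbd3 (53.4 ± 8.73% in knockdown, 62.3 ± 2.05% in control; SD, n = 2 each; exact permutation p = 0.333, two-sided), -6.60 for Hdac1 and 5.09 for Mta3 with the same p, and -5.39 for Mta1 and 7.83 for Gatad2a (p = 0.667 each by the same exact test). The Mta2 difference was 0.297 (p = 1 by the same exact test). With 2 libraries against 2 the smallest p this test can give is 0.333, so none of these differences could pass 0.05. Without knockdown replicate A the differences were -2.72 for Mbd3, -1.36 for Hdac1, 3.25 for Mta3 and 0.158 for Gatad2a, and without control replicate A the Mta1 difference turned to 0.183 and the Mta2 difference to -6.28. The summed FPKM over all 10 subunits was 471 and 545 in knockdown A and B, against 509 and 532 in control A and B, and the groups overlapped.

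**Figure D4:**
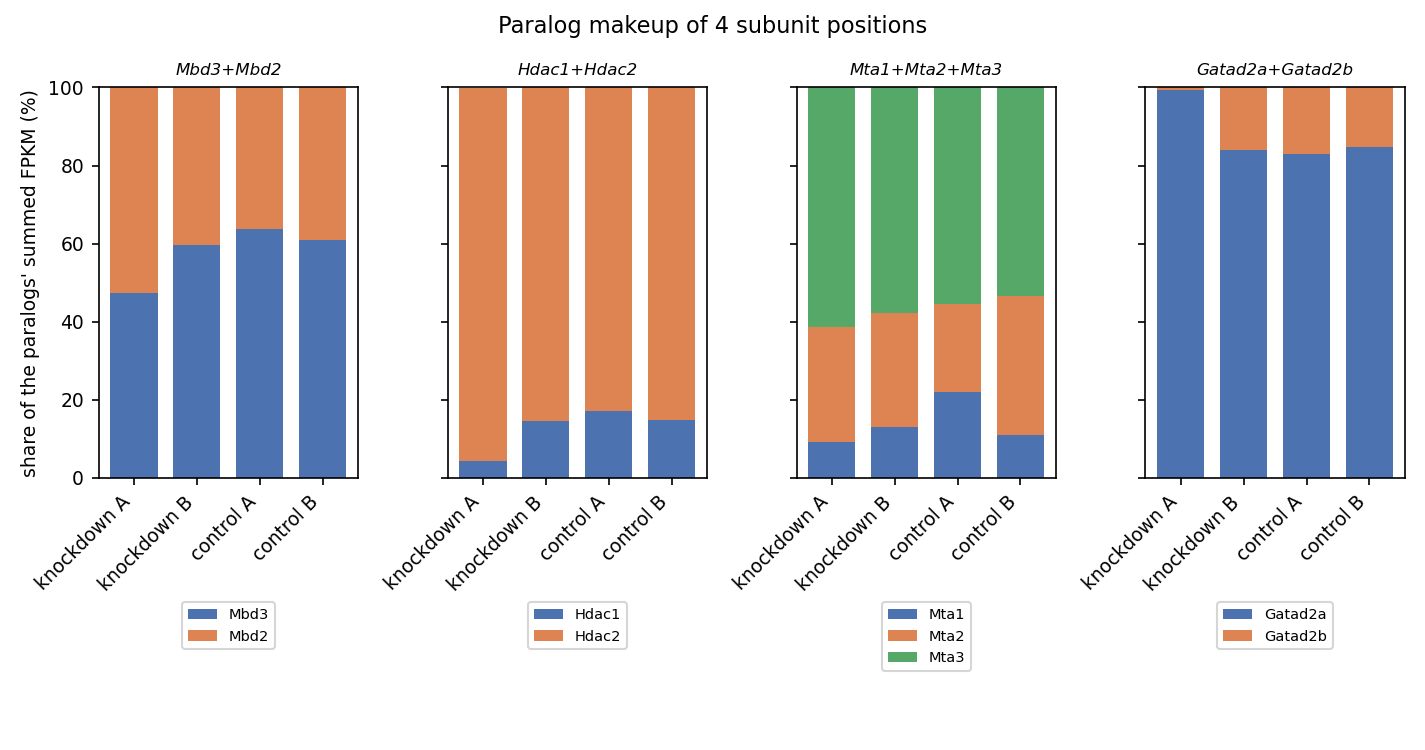
Share of each gene in the summed FPKM of its paralog set (y axis, percent). The sets are Mbd3 and Mbd2, Hdac1 and Hdac2, the 3 Mta genes, and Gatad2a and Gatad2b. Bars are the single libraries, knockdown A and B left of control A and B. Knockdown B and both controls are close in the Mbd, Hdac and Gatad2 panels, and knockdown A differs, with Hdac1 at 4.22% and Gatad2a at 99.5%.

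A further 16 subunits and partners of NuRD were measured, among them the histone chaperones Rbbp4 and Rbbp7, the small subunit Cdk2ap1, the alternative ATPases Chd3 and Chd5, and the transcription factors Sall4 and Sall1, which recruit the complex. Of the 16, 0 were called by limma in either direction and 0 had an unadjusted p under 0.05. The log2 fold change was below 0 for 15 and above 0 for 1, with a median of -0.41; it was -0.13 without knockdown replicate A and -0.69 without knockdown replicate B. The 4 with the largest absolute fold change were Chd5 at -0.82 (standard error 0.66), Zfp687, a zinc finger partner in the Zmynd8 module, at -0.80 (0.49), Chd3 at -0.75 (0.48) and Zfp592 of the same module at -0.73 (0.55). Chd3 had 3.76 FPKM in knockdown A and 3.95 FPKM in knockdown B, against 10.8 and 4.61 FPKM in control A and B, well under Chd4. Chd5 had 0.527 FPKM in knockdown A and 1.87 FPKM in knockdown B, against 4.34 and 1.57 FPKM in control A and B. Control A was the highest library for both. The interval of Zfp687 overlaps those of Pi4kb and Mir7013, so fragments may be shared and its value is uncertain.

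The SIN3 complex, which carries the same deacetylases, had 0 of 12 genes called. Of the 12, 7 were above and 5 below 0, with a median log2 fold change of 0.11. Arid4a stood at 0.55 (standard error 0.33), Suds3 at 0.51 (0.35), Brms1 at 0.43 (0.45) and Sap18, whose interval overlaps that of Mir3077, at -0.39 (0.54). The median turned to -0.26 without control replicate A. The 3 MiDAC genes had a median of -0.03 with Mideas, a scaffold of that complex, at -0.85 (0.50) and Trerf1 at 0.35 (0.55). The class I deacetylases outside NuRD, Hdac3 and Hdac8, stood at -0.31 (0.29) and -0.14 (0.38). Of 5 further MBD family genes 5 were below 0, with a median of -0.36 that was -0.041 without knockdown replicate A, -0.091 without control replicate A, -0.61 without knockdown replicate B and -0.73 without control replicate B. They were led by the DNA glycosylase Mbd4 at -1.08 (0.70), which had 0.982 FPKM in knockdown A and 7.36 FPKM in knockdown B, against 7.49 and 7.73 FPKM in control A and B, and followed by Mbd1 at -0.41 (0.46). Of 6 further CHD remodellers 3 were above and 3 below 0 (median -0.02), with Chd6 at -0.35 (0.36) and Chd2 at -0.34 (0.37). In each of these lists 0 genes were called by limma and 0 had an unadjusted p under 0.05.

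The 4 pluripotency genes that are known to be damped by Mbd3 in mouse embryonic stem cells, Klf4, Klf5, Tbx3 and Zfp42, had log2 fold changes of -0.84 (standard error 0.24), -0.99 (0.33), -0.41 (0.33) and 0.20 (0.27), and 0 were called by limma. At an unadjusted p under 0.05 the count was 2, Klf4 and Klf5, whose knockdown libraries both lay below both controls; over all tested loci 2.46% had such a p and 16.9% had groups that did not overlap on the lower side. The Klf4 level was 29.3 and 26.8 FPKM in knockdown A and B, against 46.5 and 55.4 FPKM in control A and B.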

How the data were processed

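RNA of 2 knockdown and 2 control libraries was depleted of ribosomal RNA and made into strand-marked libraries, per the labels' protocols. The authors deposited FPKM values per locus; Cufflinks, Cuffdiff and the mm9 build are named per the submitters' processing notes, their versions, the aligner and the strand setting being not given in the sources used here. Loci were named through RefSeq identifiers with a GRCm38.p6 table (names only; 23241 of 23697 had 1 symbol). Loci averaging 1 FPKM or more were tested on log2(FPKM + 1) with limma 3.58.1 in R 4.3.3, on group alone, eBayes with trend, two-sided, Benjamini-Hochberg over all 11784 loci, threshold 0.05. The fit was run on simulated data with large planted changes and the same spread in every library. Knockdown A spread more than the other libraries, so that run does not show how the fit performs on these data. Depth is not given by FPKM and was estimated from the steps of low values: the estimate was 3025000 and 3885000 fragments in knockdown A and B, and 4060000 and 3975000 in control A and B, with 66.9% to 78.6% of such values falling on whole fragments to a tolerance of 0.15. Each estimate was the depth that made the percentage on whole fragments highest, so that percentage is not an independent check of it. Transcript lengths and similar transcripts came from GENCODE M21, compared with BLAST 2.17.0. Figures were drawn with matplotlib 3.10.9. Named genes were all 10 subunits, Kdm5b and the 2 to 4 members of each list with the largest absolute log2 fold change. The subunits and lists were chosen with earlier results of these data known. Alternatives were pseudocounts of 0.1 and 0.01, no filter, a filter at 5 FPKM, upper-quartile and quantile scaling, eBayes without trend, the replicate block, summed rows and each library left out.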

Additional observations from a re-analysis of the deposited data

How the results depend on the processing

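With all libraries kept, 90 of 90 subunit fold changes under other settings had the direction reported. Only the pseudocounts and the upper-quartile and quantile scaling could change a fold change. The filters, eBayes without trend, the replicate block and the summed rows repeated the main values, and the summed rows were not tested. Of the values tested 0 were called. Gatad2b moved most, to -2.75 and -3.03 with pseudocounts of 0.1 and 0.01. In each scaling 2 subunits had groups that did not overlap. Over all loci the count called lower was 4; it was 7 under the replicate block, which called 0 subunits, 1 with no filter on low values and 2 when eBayes used no trend. The labels do not say what the letters A and B mark, and whether they pair the libraries is not known; the correlation of same-letter deviations across loci was -0.07.

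Leaving out 1 library at a time gave 0 to 119 loci called lower, 0 to 15 called higher and 0 to 1 subunits called. The median of the 10 subunits ran from -0.62 to 0.062, that of the further NuRD partners from -0.69 to -0.13, that of the SIN3 genes from -0.26 to 0.29 and that of the 4 Mbd3-damped genes from -0.72 to -0.34. For the further MBD family it ran from -0.73 to -0.041, for MiDAC from -0.18 to 0.12, for the other CHD genes from -0.19 to 0.11 and for Hdac3 and Hdac8 from -0.44 to -0.015. Fold changes that turned sign ran from -0.47 to 0.16 for Chd4, -1.35 to 0.24 for Mbd3, -0.51 to 0.40 for Mbd2 and -0.33 to 0.45 for Mta2. That of Gatad2b ran from -3.43 to -0.09. The cause of these shifts was not tested. The low fragment count of Gatad2b in knockdown A limits its fold change.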
